A study of Mus musculus with 5 samples.

Results

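The 822 regions described here are the widest distal DNaseI hypersensitive sites of embryonic stem (ES) cell-derived hematopoietic progenitors (HP). They were drawn from 17730 HP sites on the nuclear chromosomes, of which 7959 had their middle more than 2 kb from every transcription start site (TSS) of a curated RefSeq protein-coding mRNA. The 90th percentile of width over these 7959 distal sites was 1100 bp, and all sites of at least that width were kept, 10.3% of the distal sites. The remaining 7137 distal HP sites, called other distal sites below, served as the comparison. The members were thus chosen by their measured width in the HP list, and width is given as a description only.

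DNaseI hypersensitive sites are stretches of chromatin that the nuclease DNase I can reach, and were mapped by sequencing in 5 populations sorted during in vitro differentiation of a mouse ES line of strain 129 with a GFP reporter in Brachyury (Bry). Cells that were Bry.GFP+ FLK1- represent mesoderm (MES), those that were Bry.GFP+ FLK1+ hemangioblasts (HB), and Bry.GFP+ Tie2+/Ckit+/CD41- cells hemogenic endothelium (HE). HP were sorted as CD41+ and macrophages (MAC) as CD11b+. No treatment or other genotype was compared, and all populations are products of culture and not of embryos. Each stage had 1 list of sites (the MAC label names 2 replicates together), so no replicate error exists and the 95% intervals below cover counting error over sites only. The lists held 21949 (MES), 24729 (HB), 33305 (HE), 17734 (HP) and 37456 (MAC) sites as start and end positions without read counts. Totals of aligned reads, which the study gives per library, did not enter these results, and how many reads lie behind a site was not assessed. A site missing from a list is therefore not shown to be closed. Of promoter markers, with a site within 1 kb of a TSS, the HP list held 5 of 8 progenitor genes, 4 of 7 endothelial genes, 1 of 6 macrophage genes (Cd14), 1 of 4 stromal genes (Col1a1) and none of 5 mesodermal or 4 pluripotency genes. The HE list held 6 of the 8 progenitor and 7 of the 7 endothelial genes, and the MAC list 4 of the 8 progenitor genes. These counts therefore do not set the HP list apart. Cd14 was also in the HB, HE and MAC lists. Itga2b, which encodes the sorted antigen CD41, had a promoter site in the HE and HP lists alone. The part that residual HE cells or other cells play in the HP list was not tested.

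Distal hypersensitive sites include enhancers, where transcription factors displace nucleosomes and act on promoters at a distance, and insulators bound by CTCF. In the path from mesoderm to blood, the factors Tal1, Lmo2 and Gata2 act in hemangioblasts and endothelium, and Runx1 with its target Gfi1 carries hemogenic endothelium into blood progenitors. RUNX proteins bind TGTGGTT and a close variant, GATA proteins AGATAA, and Tal1 complexes often a composite in which the CTG of an E-box is followed, after 8 bases, by AGATAA. Transfer RNA (tRNA) genes, a further source of open chromatin outside protein-coding promoters, are transcribed by RNA polymerase III from promoters inside the gene.

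Stretches of 8 members are shown first, because later values refer to them. They are given 5′ to 3′ on the forward strand of mm10, from the RefSeq assembly GRCm38.p6, in windows of 180 bases chosen for the most motif matches, within the RefSeq-annotated enhancer for the second Runx1 sequence and for Gata2, Gfi1 and Lyl1. The Runx1, Gata2, Gfi1 and Lyl1 members are shown as annotated enhancers of blood factors, those of Cebpe and Pecam1 as sites shared with HB and HE and that of Erg as one shared with HE alone, and the last as a tRNA gene. Capitals mark matches on either strand to 6 motifs. The RUNX motif was searched as TGTGGTT and, as its second spelling, TGTGGTC. The GATA motif was AGATAA. The E-box was searched in the spelling of Tal1 complexes, CAGATG, and also in the spelling CAGCTG. ETS factors were represented by the letters CAGGAAGT and by the variant with CCGGAAGT, and their relative PU.1 by GAGGAAGT. The motif of AP-1, bound by Fos and Jun dimers, was TGACTCA. In the last sequence, capitals mark a tRNA gene with 50 bases on either side. Over the central 500 bp of all 7959 distal HP sites, 26.2% held RUNX, 32.8% GATA, 58.7% an E-box, 11.6% ETS, 6.24% PU.1 and 22.2% AP-1, so a match is a description and not a bound site.
Runx1 intron, first part, chr16:92800983-92801162: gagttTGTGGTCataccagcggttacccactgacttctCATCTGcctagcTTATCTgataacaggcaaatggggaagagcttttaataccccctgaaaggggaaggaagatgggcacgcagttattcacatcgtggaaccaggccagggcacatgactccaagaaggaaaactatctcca
Runx1 intron, enhancer fragment, chr16:92801672-92801851: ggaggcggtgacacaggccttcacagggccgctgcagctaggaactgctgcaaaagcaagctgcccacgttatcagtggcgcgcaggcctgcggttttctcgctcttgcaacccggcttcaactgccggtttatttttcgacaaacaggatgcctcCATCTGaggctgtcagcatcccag
Gata2 intron, chr6:88203091-88203270: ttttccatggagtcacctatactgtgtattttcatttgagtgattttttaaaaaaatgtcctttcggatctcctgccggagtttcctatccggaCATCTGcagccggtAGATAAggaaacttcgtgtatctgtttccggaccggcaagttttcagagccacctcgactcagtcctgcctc
Gfi1 upstream, chr5:107759269-107759448: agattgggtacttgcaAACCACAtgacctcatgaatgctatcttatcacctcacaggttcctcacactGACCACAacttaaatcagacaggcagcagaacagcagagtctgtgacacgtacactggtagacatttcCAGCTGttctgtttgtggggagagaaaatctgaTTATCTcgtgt
Lyl1 and Nfix, chr8:84730810-84730989: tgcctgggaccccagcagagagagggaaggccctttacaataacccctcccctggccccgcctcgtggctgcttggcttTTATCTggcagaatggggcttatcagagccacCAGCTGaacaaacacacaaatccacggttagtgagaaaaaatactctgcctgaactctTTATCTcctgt
Cebpe downstream, chr14:54705912-54706091: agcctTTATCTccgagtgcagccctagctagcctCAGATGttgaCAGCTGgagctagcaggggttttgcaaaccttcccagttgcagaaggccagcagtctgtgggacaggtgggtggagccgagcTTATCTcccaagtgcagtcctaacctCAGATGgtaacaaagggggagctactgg
Erg intron, chr16:95439554-95439733: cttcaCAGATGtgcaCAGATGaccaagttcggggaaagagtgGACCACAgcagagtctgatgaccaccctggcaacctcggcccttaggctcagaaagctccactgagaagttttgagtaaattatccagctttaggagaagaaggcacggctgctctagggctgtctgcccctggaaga
Pecam1 upstream, chr11:106723104-106723283: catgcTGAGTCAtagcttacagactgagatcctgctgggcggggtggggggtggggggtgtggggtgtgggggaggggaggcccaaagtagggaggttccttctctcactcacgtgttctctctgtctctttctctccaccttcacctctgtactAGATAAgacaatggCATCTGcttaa
tRNA gene nearest Aurkb, chr11:69040335-69040506: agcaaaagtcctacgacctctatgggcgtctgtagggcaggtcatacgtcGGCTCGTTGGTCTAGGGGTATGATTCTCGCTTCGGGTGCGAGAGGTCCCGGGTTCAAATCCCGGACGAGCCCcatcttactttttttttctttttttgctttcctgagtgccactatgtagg

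The first pair comes from 1 member of 1100 bp in an intron of Runx1, chr16:92800960-92802059, whose middle lay 24.6 kb downstream of the nearest TSS. RefSeq annotates an enhancer fragment there (chr16:92801496-92802028). Marked RUNX, GATA and E-box letters lay together at the member's start, outside the annotated fragment, and the fragment's own window held 1 marked match, an E-box. Only the spellings given above were searched, so an unmarked stretch is not shown to lack RUNX or GATA sites. The Gata2 member, chr6:88202657-88203856, lies in a Gata2 intron on an annotated enhancer and held the composite motif, with an E-box and AGATAA 8 bases apart. The Gfi1 member, chr5:107758793-107759892, lies in an intron of the neighbouring gene Evi5, 33.5 kb upstream of Gfi1, and held 2 RUNX matches and 1 GATA match within 180 bases. The Lyl1 member, chr8:84730343-84731442, lies in an intron of Nfix, 29.4 kb downstream of the TSS of Lyl1 (a basic helix-loop-helix relative of Tal1), and its window held 2 GATA matches.

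The wide sites were 1100 to 3600 bp long, with a median of 1200 bp against 600 bp for the other distal sites, and they made up 18.8% of the bases in distal sites. Because the site caller worked in bins of 100 bp, the threshold divided a continuous distribution. Just inside it were 341 sites of 1100 bp, and just outside 443 sites of 1000 bp. Only 88 members were 1500 bp or wider, and 7 were 2000 bp or wider.

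**Figure D1:**
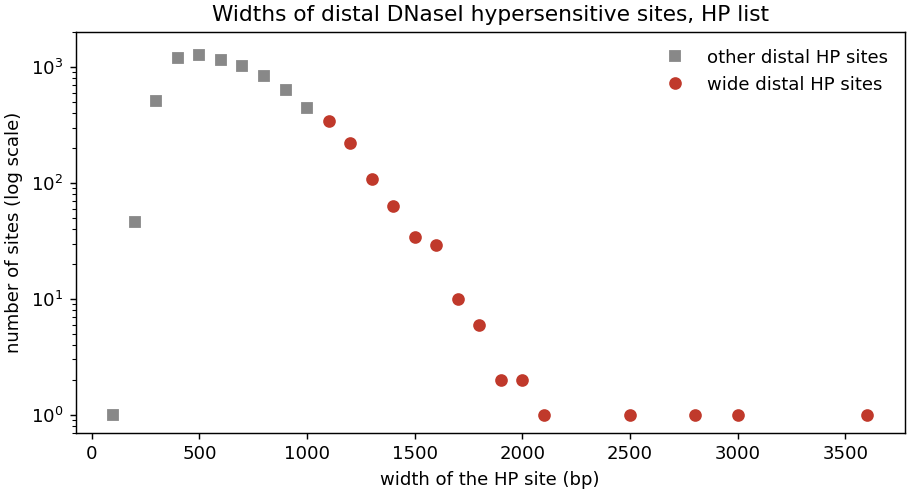
Number of distal HP sites (vertical, log scale) at each width in bp (horizontal, steps of 100 bp), with other distal sites as grey squares and the 822 wide sites as red circles. The counts fall smoothly through the threshold of 1100 bp, and single sites reach 2500 to 3600 bp.

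Most wide sites were listed at other stages. Of the 822 members, 790 (96.1%, 94.6 to 97.2) overlapped an HE site by at least 1 bp, 672 (81.8%, 79.0 to 84.2) an HB site, 614 (74.7%, 71.6 to 77.5) a MAC site and 571 (69.5%, 66.2 to 72.5) a MES site. Over all distal HP sites these shares were 73.6% for HE, 47.4% for HB, 44.5% for MAC and 38.4% for MES. Against the other distal sites alone, the members' share was higher by 25.1 points for HE (23.2 to 26.6), 38.3 for HB (35.3 to 41.1), 33.7 for MAC (30.4 to 36.8) and 34.6 for MES (31.2 to 37.9). A wide interval can meet another site more easily than a narrow one. When only the single middle base had to lie in a site of the other list, the shares were 95.5%, 79.9%, 67.2% and 64.6% for HE, HB, MAC and MES, and the differences 25.3 (23.4 to 27.0), 37.3 (34.2 to 40.1), 29.0 (25.5 to 32.3) and 31.0 points (27.5 to 34.4).

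The relation to width was gradual and did not begin at the threshold. By the middle base, the share in the HB list was 34.6% for sites of 100 to 300 bp, 51.4% at 800 bp, 64.1% at 1000 bp, 74.5% at 1100 bp and 82.6% at 1300 to 1400 bp. The share in the MES list went from 28.7% in the narrowest class to 76.1% at 1500 bp or more. For MAC it was 30.6% in the narrowest class and 79.1% at 1300 to 1400 bp, and 64.8% (54.4 to 73.9) at 1500 bp or more. Without read counts, the width of a site cannot be told apart from its strength or from the depth of its library.

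**Figure D2:**
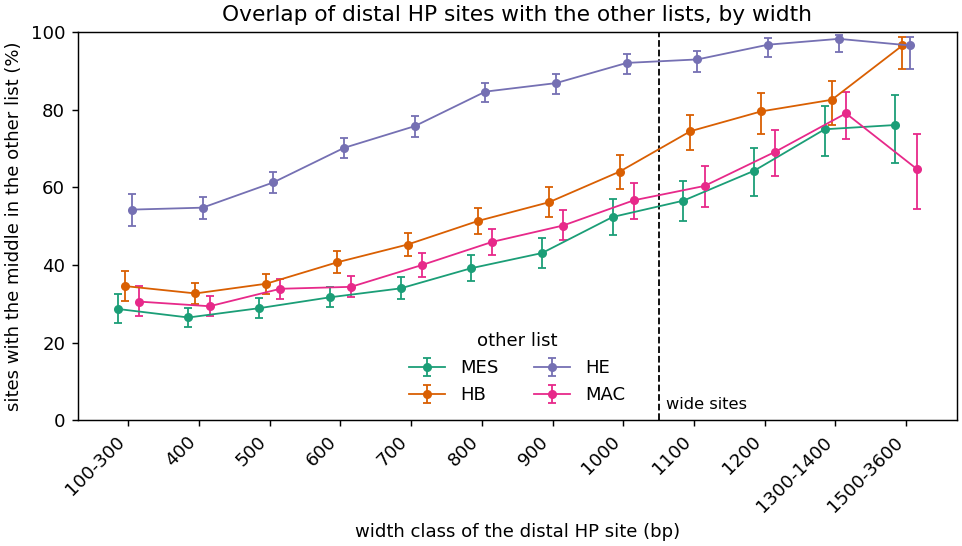
Share of distal HP sites (%, vertical) whose middle base lies in a MES, HB, HE or MAC site, by width class in bp (horizontal), with 95% Wilson intervals as bars. The HE share is 93% at 1100 bp, and HB, MES and MAC climb from between 28.7% and 34.6% in the narrowest class to above 56% in the wide classes right of the dashed line.

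A site in all 4 other lists was the commonest state, with 497 members (60.5%, 57.1 to 63.7) against 16.6% of the other distal sites and 21.2% of all distal HP sites. Overlap in none of the other lists was rare, with 12 members (1.46%, 0.837 to 2.53) against 16.9% of the other distal sites and 15.3% of all. Stricter rules of overlap raised that count to between 22 members by middle base (2.68%) and 33 by 500 bp windows (4.01%). Between these extremes, 66 members were shared with HE and MAC (8.03%, against 13.1% of other distal sites), 65 with MES, HB and HE (7.91%, 11%) and 58 with HE (7.06%, 19.3%). A further 63 were shared with HB and HE (7.66%, 5.83%) and 37 with HB, HE and MAC (4.50%, 3.49%). The remaining 24 members fell into 8 rarer combinations.

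**Figure D3:**
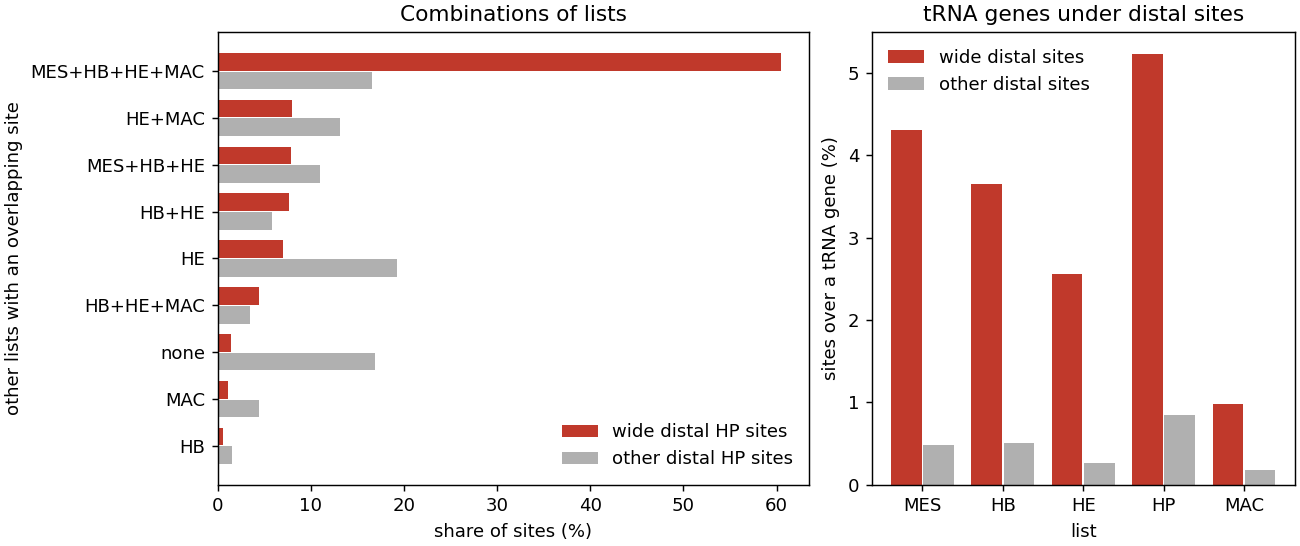
Left: share of the 822 wide and 7137 other distal HP sites (%, horizontal) in each combination of other lists that held at least 5 members. Right: share of wide and other distal sites of each list (%, vertical) that lie over a tRNA gene. The combination of all 4 lists takes 60.5% of wide and 16.6% of other sites, and the tRNA share is higher for wide sites in each of the 5 lists.

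The stage at which a region was first listed was read from MES, HB and HE in this order. By this measure, 571 members had a MES site, 106 had an HB but no MES site, 124 an HE but neither MES nor HB site, and 21 were listed in none of these 3 before HP. In the other distal sites the corresponding shares were 34.8%, 11.5%, 32.4% and 21.3%, against 69.5%, 12.9%, 15.1% and 2.55% of members. The widest member of the 12 found in the HP list alone was a 1500 bp site 6.43 kb upstream of Ccdc141, chr2:77176320-77177819. Others of the 12 lay in introns of Spns2 (a sphingosine-1-phosphate transporter), Fam117a, Gtpbp1, Rspry1 and Ddx19a. Of these 12 sites, 8 held AGATAA in the central 500 bp (66.7%, 39.1 to 86.2) and 3 a RUNX match. The 1205 other distal sites in no other list held these letters in 44.5% and 35.3%, and the intervals of both differences hold 0 (-5.56 to 41.9 points and -26.6 to 18.1).

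Members were chosen for a large width in HP, which by itself favours narrower counterparts elsewhere, so their widths at shared places are given as a description beside those of the other distal sites. Where a member met an HE site, the HE site was wider in 717 of 790 cases, with a median of 1600 bp, and it covered the whole member in 570 (72.2%). The HE site was likewise wider at 92.7% of the other distal sites that met one, and at 90.8% of members. The MAC sites were narrower than the member in 495 of 614 cases (median 1000 bp) and the MES sites in 365 of 571 (median 1100 bp). HB sites were wider in 318 of 672 cases and narrower in 224. Counterparts were narrower at 80.6%, 63.9% and 33.3% of members that met a MAC, MES or HB site, against 49.9%, 40.3% and 19.7% of such other distal sites. Single wide HP sites rarely split into several sites elsewhere, as 16 members held 2 MAC sites, 7 held 2 MES sites, 1 held 2 HE sites and none held 2 HB sites. Only 52 of the 810 members with any overlap were wider than the sites of all other lists at that place. Since each list has its own depth and width distribution, these are differences between lists and not between amounts of open chromatin.

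Each other list also has widest distal sites of its own, chosen with the same rule (thresholds of 1000 bp for MES, 1200 for HB, 1500 for HE and 900 for MAC). A wide distal HE site overlapped 601 members (73.1%, 70.0 to 76.0), a wide HB site 447 (54.4%), a wide MAC site 401 (48.8%) and a wide MES site 395 (48.1%). The shares over all distal HP sites were 23.1% for HE, 11.9% for HB, 13.2% for MAC and 9.84% for MES. Counted from the other side, members met 20.5% of the 2928 wide HE sites, 28.1% of the 1590 wide HB sites, 32.1% of the 1229 wide MES sites and 11.3% of the 3559 wide MAC sites. Thus 232 members were wide in all 4 other lists and 110 in none of them. Of the 232, 140 were CpG-rich, and of the 110, 8.

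The 2 kb rule looked at curated protein-coding start sites only, and part of the wide sites was rich in CpG dinucleotides, as many promoters are. In 245 members (29.8%, 26.8 to 33.0) the central 500 bp were CpG-rich, with a GC share of at least 0.5 and an observed to expected CpG ratio of at least 0.6. The share in other distal sites was 6.85%, a difference of 23.0 points (19.9 to 26.2). Of the 245, 138 (56.3%) lay within 2 kb of the start of any annotated transcript, against 41.1% of the 489 other distal sites that were CpG-rich. All 245 overlapped MES, HB and HE sites, and 235 of them (95.9%) a MAC site as well. Such overlap was also common in the 489 other CpG-rich distal sites, at 87.5% for MES, 92.8% for HB, 88.1% for HE and 63.4% for MAC. Start sites of any annotated transcript, coding or noncoding, lay within 2 kb of 276 members (33.6%) and of 14.2% of other distal sites, and those of long noncoding RNAs within 2 kb of 135 (16.4%) and 8.25%. An example is the 1700 bp site nearest to Frmd8, chr19:5845232-5846931, whose middle lay 602 bp from a start of Neat1, the long noncoding RNA that scaffolds paraspeckles. Another is a 1300 bp site 17.0 kb upstream of Chd2, 332 bp from the start of the noncoding gene Chaserr, chr7:73558077-73559376. Without the CpG-rich sites, 577 members remained, and their shares were 94.5% for HE, 74.0% for HB, 65.7% for MAC and 56.5% for MES, each still above the 69.8%, 39.8%, 39.3% and 31.0% of the other distal sites that were not CpG-rich.

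Genes for tRNAs and other small RNAs were examined next. A gene counted when a site overlapped it by at least 1 bp, which wide sites do more easily, and these shares were not separated from width. A tRNA gene lay under 43 members (5.23%, 3.91 to 6.97) and under 60 of the 7137 other distal sites (0.841%), a difference of 4.39 points (3.04 to 6.14). Among all 103 distal HP sites over tRNA genes, 43 (41.7%, 32.7 to 51.4) were wide. The 43 sites covered 73 of the 403 annotated tRNA genes. Of them 20 held at least 2 genes and up to 4, and 38 were listed in all 4 other stages. Of the 43, 12 lay on chromosome 13 and 8 on chromosome 11. The Aurkb member shown above, chr11:69040164-69041863, was 1700 bp long over 4 tRNA genes (n-TPcgg3, n-TDgtc9, n-TGtcc6 and n-TWcca7), and its MES, HB, HE and MAC counterparts were 1800, 1900, 2000 and 1700 bp long. On chromosome 13, 3 members of 1500, 1600 and 1100 bp within 32.2 kb had Abt1 as their nearest protein-coding gene, all over tRNA genes. A site with the vomeronasal receptor gene Vmn1r223 as nearest gene, chr13:23298511-23300110, was 1600 bp in HP and 400 bp in MES, and no MAC site was listed there. Genes that RefSeq classes as small nuclear RNA (snRNA), many of them RNA parts of the splicing machinery, lay under 18 members (2.19%) and 7 other distal sites (0.0981%). All 18 were in every other list, and they included Rnu11, Rnu5g and a Rnu1a1 site in an intron of Tex14. MicroRNA genes lay under 2 members and 7 other distal sites, with an interval of the difference that holds 0 (0.145 points, -0.0598 to 0.787). The excess of tRNA genes among wide sites was not particular to HP. Such genes lay under 4.31% of wide and 0.477% of other distal sites in MES, 3.65% and 0.509% in HB, 2.56% and 0.261% in HE, and 0.983% and 0.179% in MAC. Many tRNA and snRNA genes have near-identical copies, and the reads were limited to those placed uniquely.

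Motif content was compared over windows of equal length, the central 500 bp, in wide and other sites. For the 1752 other distal sites narrower than 500 bp (24.5%), the window includes bases outside the site. Of 20 motifs, 8 were less frequent in the members with the interval of the difference below 0, and 1 was more frequent. RUNX letters were present in 174 members (21.2%) against 26.7% of other distal sites, a difference of -5.58 points (-8.43 to -2.49). With distal set beyond 10 kb the intervals of RUNX (-2.21 points, -5.28 to 1.05) and PU.1 (-1.68 points, -3.13 to 0.0953) held 0. With the 80th percentile of width so did those of GATA (-0.863 points, -3.24 to 1.57) and PU.1 (-0.484 points, -1.65 to 0.805). For the TCF letters, CTTTGAT, the interval held 0 in the main setting and lay below 0 beyond 10 kb (-2.13 points, -3.54 to -0.397). The largest difference was that of the E-box, with 49.0% against 59.8% (-10.8 points, -14.4 to -7.17). For GATA the shares were 25.2% and 33.7%, for MEIS (TGACAG) 29.8% and 37.2%, for AP-1 15.0% and 23.0%, and for TEAD (CATTCCA, with CATTCCT as second spelling) 18.0% and 24.8%. The motif bound by KLF and SP factors, CCACNCCC, was the exception with 28.1% against 23.0%, a difference of 5.15 points (2.02 to 8.46), which in the central 200 bp was 0.475 points (-1.70 to 2.97) and held 0. With the letters of each motif in reversed order, 3 of the 20 had an interval below 0, which were RUNX (-3.50 points, -5.82 to -0.867), GATA (-2.63 points, -4.90 to -0.0543) and MEIS (-4.12 points, -7.0 to -1.0). KLF (4.14 points, 1.29 to 7.23) and the octamer (0.412 points, 0.0394 to 1.22) had one above 0, so base composition moves with these differences. CpG-rich sites hold fewer of the RUNX and GATA letters. Among sites that were not CpG-rich, 26.5% of members and 27.9% of others held RUNX (difference -1.43 points, -5.04 to 2.47), and 33.6% and 35.5% GATA (-1.92 points, -5.83 to 2.19). The intervals remained below 0 for 5 motifs. These were the E-box (-5.36 points, -9.60 to -1.19), MEIS (-6.00 points, -9.88 to -1.90), TEAD (-5.83 points, -9.08 to -2.21), AP-1 (-5.42 points, -8.58 to -1.87) and CTCF. The CTCF motif (4 spellings of the core motif, each of 11 letters) was in 2.77% of members and 7.67% of others that were not CpG-rich, a difference of -4.90 points (-6.15 to -3.11). When only sites of 500 bp or more were compared, with 5385 other distal sites, the 8 motifs were again lower and KLF higher with intervals that leave out 0, at -5.46 points for RUNX, -9.04 for GATA and -4.06 for CTCF. By width, CTCF letters were in 10.8% of distal sites of 100 to 300 bp, 8.68% at 500 bp, 4.04% at 800 bp and 3.23% at 1100 bp. Over whole sites instead of equal windows, the shares of RUNX, GATA, PU.1, E-box, MEIS and TEAD letters turned to higher in the members, whose longer sequence holds more letters, and for AP-1 the interval of the difference held 0 (1.68 points, -1.40 to 4.97).

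Among the members themselves, motif content differed strongly with the stage of first listing. RUNX letters were in 14.2% of the 571 members with a MES site, 34.9% of the 106 first listed in HB, 39.5% of the 124 first listed in HE and 7 of the 21 listed in none of the 3. Members that were in neither the MES nor the HB list (145 sites) held RUNX in 38.6% and GATA in 43.4%, against 14.2% and 15.2% of members with a MES site, differences of 24.4 (16.3 to 33.0) and 28.2 points (19.8 to 36.8). None of the 145 was CpG-rich. Against the 326 members with a MES site that were not CpG-rich, the differences were 20.2 points for RUNX (11.4 to 29.2), 20.7 for GATA (11.6 to 29.9), 10.4 for AP-1 (2.81 to 18.8), 11.2 for MEIS (2.01 to 20.6) and 7.74 for the GATA and E-box composite (3.63 to 13.6). An E-box was in 60.7% and 48.2% (interval of the difference 2.76 to 21.8 points). The composite was in 13 of the 145 sites and in 4 of the 326. For TEAD the difference was 5.20 points (-2.25 to 13.5), for KLF -3.55 (-11.5 to 5.24) and for CTCF -1.61 (-4.58 to 2.53), intervals that hold 0. The same contrast was made in the other distal HP sites that were not CpG-rich (3802 and 2058 sites). In these, the RUNX, GATA, composite, AP-1, E-box and MEIS differences (13.8, 21.0, 5.09, 11.7, 3.24 and 6.58 points) also had intervals above 0. There the remaining 3 left out 0 as well, at 4.26 points for TEAD (1.95 to 6.52), -6.75 for KLF (-9.05 to -4.48) and -13.0 for CTCF (-14.7 to -11.3). Whether wide and other sites differ in these contrasts was not tested. In the 63 members shared with HB and HE alone, 24 held RUNX, 39 GATA, 49 an E-box and 8 the composite. Against the 416 other distal sites of the same combination, the differences were 15.0 points for RUNX (3.23 to 27.9), 9.26 for GATA (-3.97 to 21.2), 17.0 for the E-box (4.41 to 26.7) and 5.73 for the composite (-1.03 to 16.3).

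**Figure D4:**
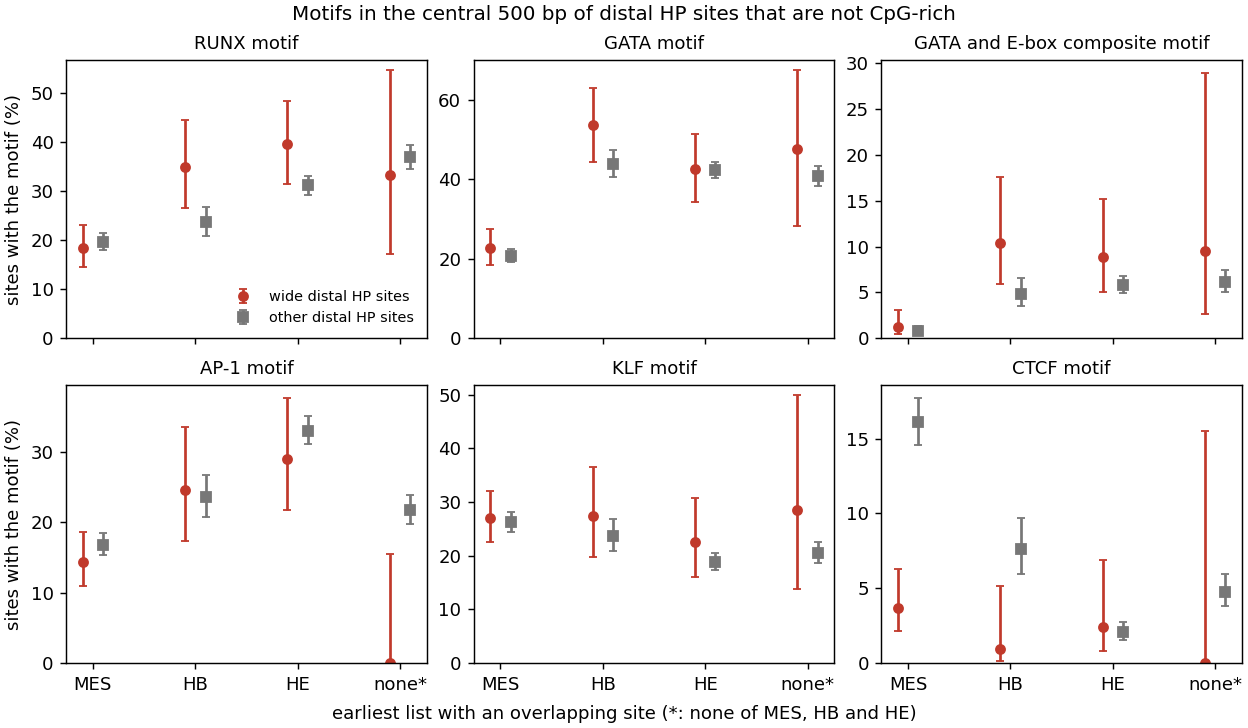
Share of distal HP sites that are not CpG-rich (%, vertical) with each motif in the central 500 bp, by the earliest of the MES, HB and HE lists that holds an overlapping site (horizontal), with 95% Wilson intervals, for wide (red) and other sites (grey). RUNX and GATA letters are in 18.4% and 22.7% of wide sites with a MES site and in 39.5% and 42.7% of those first listed in HE, and CTCF letters are more frequent in the other sites with a MES site than in the wide ones.

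Position relative to genes was compared next. The middle lay between genes in 497 members (60.5%) and in 49.4% of other distal sites, in an intron in 248 (30.2%) and 43.5%, in an untranslated exon in 52 (6.33%) and 4.37%, and in a coding exon in 25 (3.04%) and 2.68%. The median distance to the nearest protein-coding TSS was 18.0 kb in members and 22.5 kb in others, with 277 members (33.7%) at 2 to 10 kb, 367 at 10 to 50 kb, 104 at 50 to 100 kb and 74 farther. Enhancers or other functional elements annotated by RefSeq overlapped 33 members (4.01%, 2.87 to 5.58) and 110 other sites (1.54%). Beside those of Runx1, Gata2, Gfi1 and Lyl1 they included members near Smad6, Smad7 and Ski (regulators of TGF-beta and BMP signalling), Fos, Fgfr1, Gypc and Vmp1, the last 2906 bp from Mir21a.

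The 822 members had 725 nearest genes, of which 645 had 1 member, 68 had 2, 7 had 3 and 5 had 4. The gene nearest by distance need not be the gene that a site acts on. Upstream of Nanos3, 4 members of 1300, 1300, 1700 and 1400 bp lay within 18.2 kb (chr8:84186443-84204642), close to the microRNA genes Mir181c and Mir23a, and all 4 were in every other list. Around Irs2, an adaptor of the insulin receptor, 4 members of 1100 to 1200 bp were spread over 147 kb. None of these was in the MES list and all were in HB and HE, with HB widths of 800, 400, 1000 and 1000 bp and HE widths of 1600, 1500, 1500 and 1500 bp. Near Tomm20, which encodes an import receptor of mitochondria, 4 members lay within 27.3 kb at 93.1 to 119 kb from the gene. They were absent from MES and present in HE and MAC, and the first pair was in HB as well. The 4 sites of Chd2, a chromatin remodeller, were in every list, and 3 were CpG-rich. The remaining gene with 4 members was Alkbh8, at 299 to 330 kb, where 93.8% to 95% of the bases are masked as repeats. Smad6 had 3 members of 1200 bp, at HB widths of 1000, 1300 and 1400 bp and HE widths of 1800, 1600 and 1800 bp. One of them met a MES site of 600 bp, one a MES site of 1100 bp and one none.

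Several of the very widest intervals lay in places where the assembly is repetitive. Of the 25 widest members, 6 were within 100 kb of unsequenced bases or more than 50% masked, and 22 were in all 4 other lists. The widest, chr14:19415840-19419439, was 3600 bp and 83.9% masked, and its counterparts had 3500, 3400, 3500 and 3600 bp in MES, HB, HE and MAC. In all, 34 members (4.14%) and 2.68% of other distal sites met either condition. Leaving them out moved none of the 4 overlap shares beyond its interval. Among members that met neither condition, the widest was a 3000 bp site on chromosome 17 with Esp38 as nearest gene, which had 3000 bp in every list. The 2 conditions do not detect unmasked sequence present in many copies, and whether this place is such a sequence was not tested. A 1900 bp site with Lrrc4c as nearest gene, 1195 kb away, was 49.7% masked and so fell just below the limit. Also wide, and meeting neither condition, were a 2100 bp site 5.40 kb upstream of Ahnak, a large scaffold protein of the cell membrane, and a 2000 bp site at Kdm6b, which encodes a demethylase of histone H3. The Ahnak site was 500 bp in MES, 1900 in HB, 2300 in HE and 700 in MAC. Kdm6b had 1900, 1900, 2200 and 1800 bp. Of the 25, a 1800 bp site 15.6 kb upstream of Gtf3c5 was shared with HE alone (2300 bp). The 1700 bp site in an intron of Pstpip1 was wider in HE (1900 bp) and 800 to 1000 bp in the other 3 lists, and the 1700 bp site upstream of Nsd2 was 1600 bp in HE and at most 1300 bp elsewhere.

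Genes with known roles in blood were examined through 13 lists. Of 34 hematopoietic transcription factor genes, 11 (32.4%, 19.1 to 49.2) were nearest to a member, against 725 of 21000 protein-coding genes (3.45%). With the nearest gene taken over every annotated gene, noncoding genes included, the members of this list fell from 13 to 7, and those of the adhesion list from 4 to 1. Other lists lost members too, among them the AP-1 and cytokine lists, and the TEAD and Hippo list lost its only member. Of the 34 factor genes, 25 were nearest to a distal HP site of any width, against 5010 of the 21000 protein-coding genes. Of their 71 distal HP sites, 13 (18.3 per 100) were wide, against 10.3 per 100 over all distal sites. The same value was 23.1 per 100 for the 18 housekeeping control genes (3 with a member, 13 distal sites) and 11.8 for 26 erythroid genes (2 with a member). No test was made of these counts, because the lists were set with earlier results known.

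Runx1 had 2 members, the 1100 bp site shown above and a 1200 bp intronic site at 3.71 kb, chr16:92821760-92822959. The first met an HE site of 1000 bp and a MAC site of 500 bp, the second an HE site of 1800 bp, and MES and HB listed nothing at either. The second member held 3 RUNX matches over its length. The Gata2 member had a site in the same lists as the first Runx1 member, at widths of 1700 bp (HE) and 600 bp (MAC) against its own 1200 bp. Erg, an ETS factor of endothelium and blood stem cells, had a 1300 bp intronic site with an HE site of 1800 bp and no other. Klf2, a factor of flow-exposed endothelium, had a 1300 bp site 23.6 kb upstream, with HE 1500 bp and MAC 1000 bp. Cebpb had a 1300 bp site at 112 kb that held 6 GATA matches and 2 composites, with HE 1200 bp alone. All these sites were in HE and none was in MES or HB, and the second Runx1 site and those of Erg and Cebpb were not in MAC.

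Other factor genes each had a member that met an HB site. The Gfi1 site was 500 bp in HB and 1500 bp in HE and was not in MAC. Lmo2, the bridging protein of the Tal1 complex, had an 1100 bp site 64.0 kb upstream, chr2:103893420-103894519, with an HB site of 900 bp and no site in HE. The middle of this Lmo2 site lay 90 bp from an annotated start of Gm39895. Cbfa2t3, a corepressor in the same complex, had 2 members upstream. The nearer at 13 kb was in HE alone (1500 bp), and the farther at 21.1 kb was 1300 bp in HB, 1900 bp in HE and 800 bp in MAC. That farther site held 4 GATA matches, 2 RUNX matches and 2 composites. Members of Lyl1, Tal1 and Zfpm1 (the GATA1 partner FOG1) were present from MES, at 700, 900 and 1100 bp. The Tal1 member, 5.45 kb downstream of the nearest TSS, was the only CpG-rich one of the 13.

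Of 16 AP-1 and immediate early genes, 6 had a member, with 9 members out of 31 distal sites (29.0 per 100). Fos, a subunit of AP-1, had members 18.4 kb upstream (1300 bp, on an annotated enhancer) and 12.3 kb downstream (1100 bp). Ier2, Egr1, Fosb, Atf3 and Mafk had the others. A start of another annotated gene lay nearer at the Atf3 site (D730003I15Rik, 105 bp) and at an Ier2 site (Gm39212, 326 bp). The same held for the upstream Fos site (Gm38543, 3407 bp) and the upstream Egr1 site (Gm41689, 5225 bp). Of the 9, 8 were in all 4 other lists and 5 were CpG-rich. The exception was a 1300 bp site 6.86 kb upstream of Egr1, which met an HE site of 700 bp and no other.

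Cytokine signalling genes had 5 of 29 with a member, which were Csf2ra, Inpp5d, Pim1, Socs3 and Vav1 (17.1 members per 100 distal sites). At both Pim1 members a start of Gm36486 lay nearer, at 137 and 9963 bp. The Vav1 site, in an intron of this guanine nucleotide exchange factor of blood cells, was 1400 bp in HP, 1700 bp in HE and 1200 bp in MAC, and held 3 RUNX matches. The Csf2ra site lies near unsequenced bases. Myeloid genes had 3 of 25, with 4 members among 17 distal sites (23.5 per 100). Of 2 members at Cebpe, a factor of granulocyte maturation, the downstream one was in HB (1200 bp) and HE (1600 bp) only. The Adgre1 site, upstream of the gene for the macrophage antigen F4/80, was 1200 bp wide against 1600 bp in HE and 1300 bp in MAC, and its HB and MES counterparts had 400 and 200 bp.

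Of the remaining lists, adhesion genes had 9.76 members per 100 distal sites (4 of 41) and endothelial genes 6.06 (2 of 33). Megakaryocyte genes had 6.90 (2 of 29) and TEAD and Hippo pathway genes 3.12 (1 of 32). With counts this small, these values are not shown to differ from the 10.3 found over all genes. Adhesion genes had 4 of 28 with a member (Cd9, Itgb1, Myh9 and Vcl). The Cd9 site (1400 bp) was 1900 bp in HE and 1300 bp in MAC, and the Vcl site (1100 bp) was 1600 and 1000 bp, and neither had a MES or HB site. The middle of the Cd9 site lay 165 bp from an annotated start of Gm28809. The Myh9 site was 900 bp in MES, 1600 in HB, 1800 in HE and 1700 in HP, and was missing from MAC. Endothelial genes had 2 of 30 (Erg and Pecam1), and the Pecam1 site was 1000 bp in HB and 1500 bp in HE. Megakaryocyte genes had 2 of 26 (Plek and Thbs1). In the list of TEAD and Hippo pathway genes 1 of 20 had a member. This 1300 bp site 40 kb downstream of Ccn2, a known target of TEAD and YAP, was 1600 bp in HE and 1800 bp in MAC. A start of Enpp1, over all annotated transcripts, lay nearer, at 29515 bp. No gene of the mesodermal (22), cardiac and smooth muscle (16) or pluripotency (16) lists was nearest to a member, and these lists had 10, 8 and 8 distal HP sites in all.

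**Figure D5:**
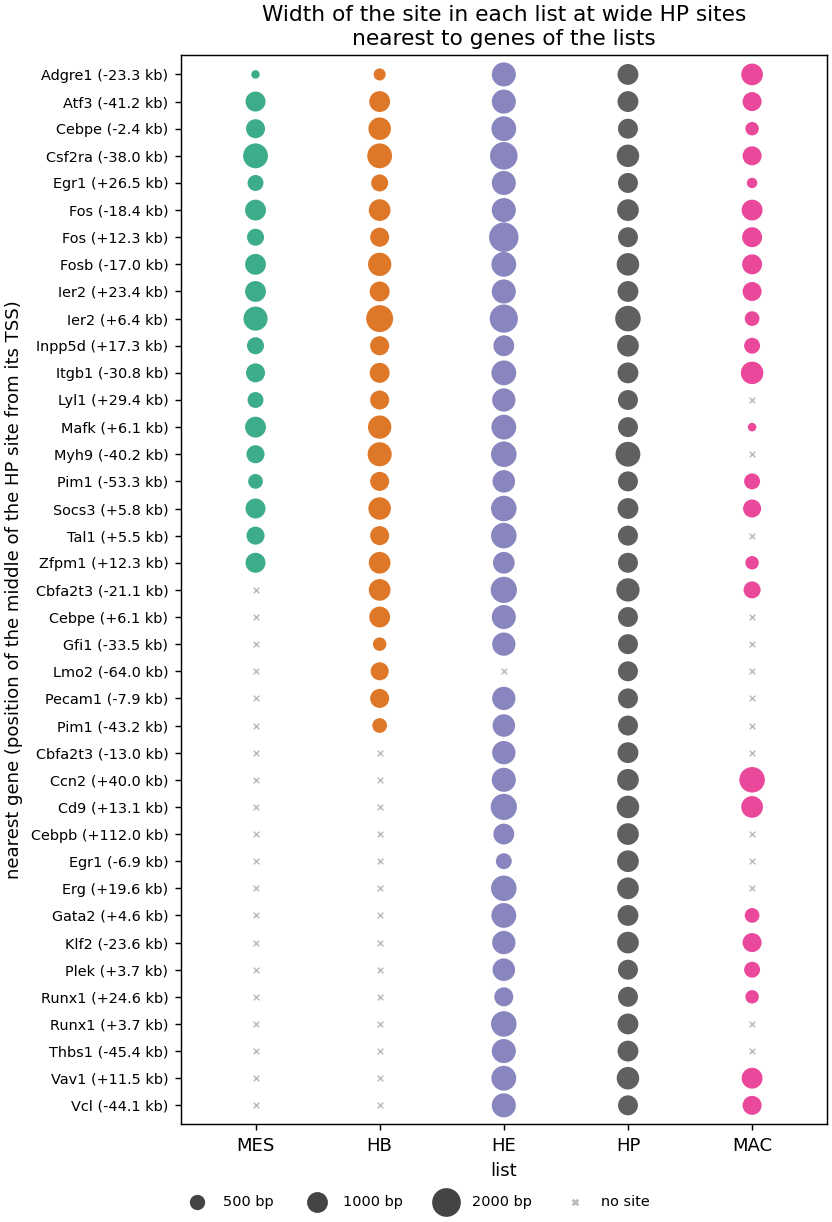
Width of the overlapping site in each list (area of the circle, key in bp) at the 39 wide HP sites nearest to genes of 8 of the lists, ordered by the earliest list that holds a site. Grey crosses mark lists without a site. From the nearer Cbfa2t3 site down, no site has a MES or HB counterpart.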

How the data were processed

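DNaseI-seq was measured in 5 populations, 1 list of sites each. Per the methods of the study, the authors aligned reads to mm10 with Bowtie after trimming, kept uniquely placed reads, removed duplicates, and DFilter, run with 100 bp bins, called the sites. The processing notes also name HOMER, and versions are not given in the sources used here. What the authors deposited is a start and an end per site, in bp, with no score, signal or count per site. The study lists total aligned reads per library, which were not used here, and the depth and precision behind each site were not assessed. Sites on the mitochondrial chromosome were left out, and a few items are not reported here.

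Members, TSS (26032 positions of 21000 genes), nearest genes, noncoding genes, functional elements and sequence came from RefSeq GRCm38.p6. Overlap meant at least 1 bp. Motifs were exact letters on both strands in the central 500 bp, which reach beyond sites narrower than that. Shares have Wilson intervals and differences Newcombe intervals at 95%. The functions were tested on simulated data. Python 3.11.15, numpy 2.4.6, pandas 2.3.3, scipy 1.17.1 and pysam 0.24.0 were used.

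The members, gene lists, markers and motifs were chosen with earlier results of these data known. Named genes were the nearest genes of the 25 widest members, genes nearest to at least 4 members, genes of the 13 lists with a member, and the widest member of a combination of lists, beside examples chosen after their values were seen. Of the list genes, Ctgf and Cyr61 were matched as Ccn2 and Ccn1. The grouping by earliest list, the CpG, tRNA and snRNA comparisons and the shown sequences were chosen after seeing the data. Alternatives changed the threshold, the definition of distal, the overlap rule, the motif window and the nearest gene.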

Additional observations from a re-analysis of the deposited data

Results flagged for a closer look

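The HP list held 4 sites on the mitochondrial chromosome, of 1500, 2000, 1700 and 1900 bp, and the MES, HB, HE and MAC lists held 0. They lie outside the rule and were used in no comparison. Mitochondrial DNA carries no nucleosomes and is present in many copies per cell. Why these sites are in the HP list alone was not tested.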

How the results depend on the processing

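No paired analysis was possible because each stage has 1 list and no replicate could be left out. The number of members was 1906 at the 80th percentile of width (900 bp) and 481 at the 95th (1200 bp), and within 1.5 times of 822 under the other definitions of distal. The overlap shares moved beyond their counting intervals under most alternatives, while the members' excess over other distal sites stayed between 24.0 and 51.1 points in all 4 lists and 10 settings. For MES, HB, HE and MAC in this order, the 80th percentile gave 57.7%, 69.6%, 92.7% and 64.8%, the 95th 76.3%, 86.1%, 97.7% and 81.7%, and start sites of every transcript 56.8%, 70.5%, 93.9% and 66.0%. Beyond 10 kb the MES, HB and MAC shares were 59.6%, 72.7% and 67.5%. The middle base gave 64.6% for MES and 67.2% for MAC. With at least 50% of the member covered, MES, HB and MAC had 63.4%, 78.2% and 62.2%. With 500 bp windows the 4 shares were 65.0%, 78.3%, 90.3% and 67.3%. With each other list reduced to its widest sites, as many as HP has, HB, HE and MAC had 77.1%, 91.2% and 63.7%. Without CpG-rich sites (chosen after seeing the data, like the tRNA, CpG and chromosome 8 settings and the removal of repeat places) the 4 shares were 56.5%, 74.0%, 94.5% and 65.7%. Overlap in no other list was 2.68% by middle base, 2.80% by 50% coverage, 4.01% by windows and also with equal list sizes, 3.88% at the 80th percentile and 2.87% with every transcript. Overlap in all 4 was, for the same settings, 52.8%, 49.8%, 50.7%, 51.1%, 45.6% and 45.3%, and 68.4% at the 95th percentile, 49.1% beyond 10 kb and 45.4% without CpG-rich sites. Overlap with a wide site of MES, HB, HE and MAC was 42.7%, 49.9%, 63.9% and 38.8% at the 80th percentile, 35.2%, 40.4%, 63.7% and 38.1% beyond 10 kb and 32.8%, 42.6%, 68.3% and 38.1% without CpG-rich sites, and 53.4% for MES and 69.2% for HE at the 95th.

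The tRNA share was 2.94% at the 80th percentile, 3.25% beyond 10 kb and 3.47% without CpG-rich sites. The CpG-rich share was 20.9% at the 80th percentile, 22.9% beyond 10 kb and 16.8% with every transcript, and the chromosome 8 share 16.1% without CpG-rich sites. Over whole sites the difference in points turned positive for RUNX (10.3), GATA (11.6), PU.1 (3.79), E-box (13.9), AP-1 (1.68, -1.40 to 4.97), MEIS (18.0) and TEAD (6.99), since longer windows hold more letters, and 0 motifs were lower and 17 higher. In the central 200 bp 0 were higher, as KLF fell to 0.475, and without CpG-rich sites 5 were lower. With sites of 500 bp or more alone (also chosen after seeing the data) 8 were lower and 1 higher, as in all sites. With the nearest gene taken over every annotated gene, 3.04% of members were nearest to a listed gene, against 5.35%, since other annotated genes lay nearer. The cause of the other shifts was not tested. Depth limits every absence of a site and was not assessed.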

Other observations

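Chromosome 8 carried 109 of the 822 wide distal HP sites (13.3%, 11.1 to 15.8) against 9.84% of other distal HP sites, 8.03% of all HP sites, 4.67% of protein-coding TSS positions and 4.75% of the bases. Without CpG-rich sites the share was 16.1%. The wide distal sites of the other lists also had a higher share there than their other distal sites, 12.2% against 9.03% in MES, 11.1% against 8.64% in HB, 9.80% against 7.55% in HE and 9.27% against 7.05% in MAC. Nanos3, Irs2 and Tomm20, with 4 members each, and the members of Lyl1, Ier2, Klf2, Zfpm1, Cbfa2t3 and Itgb1 are on this chromosome. The chromosome was picked after its value was seen, and a difference in its copy number between the ES line and the reference was not tested.

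Within 12500 bp of another member lay 92 members (11.2%), in 42 groups of which 5 held 3 or 4 sites, at Arhgap23, Nanos3, Tomm20, Alkbh8 and Ccr1. The Alkbh8 and Ccr1 groups lie near unsequenced bases. Super-enhancers, which are defined from runs of neighbouring sites and their signal, cannot be called from these positions.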
